A study of Mus musculus with 2 samples.

Results

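The cells described here are 1259 proximal tubule cells of the mouse kidney, of 11759 cells in all, which the deposited annotation names PT-S3 and places in cluster 4 or cluster 8. They were chosen by that name and those cluster numbers alone. The annotation divides proximal tubule cells into PT-S1, PT-S2 and PT-S3. Of the 1259 cells, 1197 came from the control library (742 in cluster 4 and 455 in cluster 8) and 62 from the library made after ischaemia-reperfusion injury (IRI), with 58 in cluster 4 and 4 in cluster 8.

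Each library came from the kidney of wild-type C57BL/6 mice aged 9 weeks. The IRI group had ischaemia and reperfusion of one kidney with removal of the opposite kidney. The control is labelled normal, and its labels name no nephrectomy or sham operation, so injury and nephrectomy cannot be told apart. The labels give no time after injury and no number of animals per library. Kidneys were minced, digested with Liberase and DNase I and strained before droplet single-cell RNA sequencing. With 1 library per group there was no test between conditions. The clusters were also made from the genes compared below, so every difference between clusters is a description without a test.

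The proximal tubule reclaims most of the filtrate in a sequence of segments. S1, next to the glomerulus, carries the bulk of glucose, amino acid, phosphate and bicarbonate reabsorption. S2 is known for secretion of organic anions and cations. S3, the straight part in the outer medulla, is known for high-affinity recovery of what is left, for xenobiotic metabolism by cytochrome P450 enzymes, and in mice for androgen-dependent genes such as Kap. S3 is also the segment most often injured by ischaemia.

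Depth differed strongly between the groups and bears on every comparison. Control cells of cluster 4 had a median of 2374 raw UMIs (unique molecules) and 893 genes, and control cells of cluster 8 had 8192 UMIs and 2566 genes. The 58 IRI cells of cluster 4 had a median of 1279 UMIs. The values used are the authors' depth-corrected counts, called corrected counts below, which still moved with depth within a cluster. Cyp2e1, a cytochrome P450, averaged 0.476 corrected counts per cell in the 145 control cells of cluster 4 with under 1000 UMIs and 2.77 in the 214 cells with 4000 or more. Kap did not move this way, with 77.5 and 78.9 in those cells. Main values use all cells, and values at matched depth stand beside them. These were cells with 4000 to 8000 raw UMIs for comparisons within the control library, and for each IRI cell the 5 comparison cells nearest in UMIs. The band limits differences in depth and does not remove them. A gene was measured when it had at least 30 summed corrected counts, and was called higher or lower when means, each with 0.05 added, differed at least 2-fold.

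Clusters 4 and 8 held 18.2% of the control library (1197 of 6589 cells, exact Clopper-Pearson 95% interval 17.2 to 19.1) and 1.20% of the IRI library (62 of 5170, 0.921 to 1.53). As a share of PT-S3 cells these were 83.0% and 7.85%, and 727 of the 790 IRI PT-S3 cells lay in cluster 3. Intervals cover counting error only. Cluster borders were drawn from genes that differ between the libraries, so these shares say where cells were placed and not how many were lost. In cells dissociated from tissue, fewer cells of a type and less RNA per cell cannot be told apart. No IRI cell of clusters 4 and 8 carried the barcode of a control cell of these clusters (0 cells), although 55 barcodes occurred in both libraries, and 2 of the 58 IRI cells of cluster 4 had one of these.

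Control cells of clusters 4 and 8, pooled, expressed the genes given as markers of S3 above PT-S1 and PT-S2 cells pooled likewise, together with a set of S2 transporters. Single clusters were exceptions: Kap averaged 90.3 in PT-S2 cluster 18, against 75.8 in cluster 4 and 39.3 in cluster 8, and Slc22a30 averaged 1.03 in PT-S1 cluster 5, against 0.267 in cluster 4. They were compared with the 3385 control PT-S1 and PT-S2 cells (median 2043 UMIs). Of 9061 genes measured, 373 were higher (4.12%) and 34 lower (0.375%), with a median log2 ratio over all genes of 0.09. With 4000 to 8000 UMIs the counts were 347 higher (5.08%) and 279 lower (4.08%) of 6835 genes. Without PT-S2 clusters 0 and 2, whose medians were 854 and 529 UMIs, 280 of 8693 were higher (3.22%) and 138 lower (1.59%).

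Among S3 transporters and enzymes, 16 of 23 measured genes were higher and 0 lower, with a median log2 ratio of 1.46, and at matched depth 16 of 18 were higher with a median of 2.0. Slco1a1, an organic anion transporter of the brush border, averaged 0.914 against 0.0925 corrected counts per cell, a log2 ratio of 2.76. Cyp2e1 averaged 2.04 against 0.281 and Cyp4b1, another cytochrome P450, 3.25 against 0.490. Slc7a13, an amino acid transporter that pairs with Slc3a1 in S3, averaged 1.22 against 0.175. Kap, the kidney androgen-regulated protein, was the most abundant of the markers. It ranged from 12 to 487 in single cells of cluster 4, with a median of 61, and from 8 to 296 in cluster 8, with a median of 30. Control T and B cells, which should lack Kap, averaged 5.65, so part of the level in any droplet of this library can be free RNA.

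Organic anion and cation transporters were higher in 16 of 23 measured members, with a median log2 ratio of 1.51, and cytochrome P450 and monooxygenase genes in 12 of 24, with a median of 1.18. Conjugating enzymes were divided. Of 29 measured, 8 were higher, where 4.12% of all genes were, and 1 was lower, while their median was 0.01. Of 8 androgen-responsive genes measured, 6 were higher, with a median of 1.39. These were Kap, Slco1a1, Cyp4b1, Acsm3, Cyp2j13 and Slc7a13. All but Cyp2j13 are also in the S3 list above, so this is not a separate result. The transporter and cytochrome P450 lists share members with the S3 list too. Amino acid transporters were higher in 6 of 16, among them Slc3a1, Slc6a18 and the glutamate transporter Slc1a1. None of 21 nuclear genes of the respiratory chain was called in either direction (0 higher, 0 lower), with a median of -0.14. The 13 mitochondrially encoded genes had a median of 0.72 with 2 higher, and 12 were higher at matched depth with a median of 1.38.

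Lpl, lipoprotein lipase, had the highest ratio, with 1.81 against 0.142, a log2 ratio of 3.28. Cd36, a fatty acid receptor, averaged 0.762 against 0.0632, and Atp11a, a phospholipid flippase, 1.09 against 0.106. The other highest genes were Slc5a8, a monocarboxylate carrier, Lrp2, the endocytic receptor megalin, Slc13a3, a dicarboxylate carrier, the brush-border protease Mep1a and the glucuronosyltransferase family member Ugt3a2, with log2 ratios from 2.45 (Ugt3a2) to 2.81 (Slc5a8). The lowest were Sepw1, Slc5a12, Mt1, Gatm, Fabp3, Mt2, Clec2h, Gsta2, Spp1, Cotl1, Pfn1 and Slc5a2, from -2.0 (Sepw1) to -1.24 (Slc5a2). Mt1 and Mt2 are metallothioneins, and Spp1, osteopontin, was no longer lower without PT-S2 clusters 0 and 2 (log2 ratio -0.09).

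S1 genes divided. Slc5a2, the S1 glucose transporter, averaged 0.0401 against 0.163, Slc5a12, a lactate transporter, 0.0159 against 0.206, and Gatm, the first enzyme of creatine synthesis, 0.304 against 1.20. The S1 genes called higher than in the pooled cells were Slc34a1, the phosphate transporter, with 4.58 against 1.45, and Slc4a4, the basolateral bicarbonate transporter, with 1.01 against 0.271. They were not higher than in every S1 cluster. Slc34a1 and Slc4a4 averaged 7.02 and 1.51 in PT-S1 cluster 5 and 0.880 and 0.384 in PT-S1 cluster 6. In cluster 4 they averaged 3.07 and 0.730, and in cluster 8 7.03 and 1.46. In all, 3 of 11 measured S1 genes were lower and 2 higher, with a median of -0.36, and at matched depth 6 were lower with a median of -1.12.

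S2 genes were higher too. Of 8 measured, 6 were higher and 0 lower, with a median of 1.62: Slc22a6, the basolateral carrier of organic anions, Slc13a3, Slc22a12, the urate transporter, Slc17a1, Slc17a3 and Slc22a2, an organic cation transporter. Slc22a6 averaged 1.16 in clusters 4 and 8. Over the 12 control proximal tubule clusters with at least 20 cells, cluster 8 ranked first for Slc22a6, Slc13a3, Cyp2e1, Cyp4b1, Slco1a1, Slc22a30 and Slc34a1, and cluster 4 second for Slc22a6, Slc13a3, Cyp2e1, Cyp4b1 and Slco1a1.

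**Figure D1:**
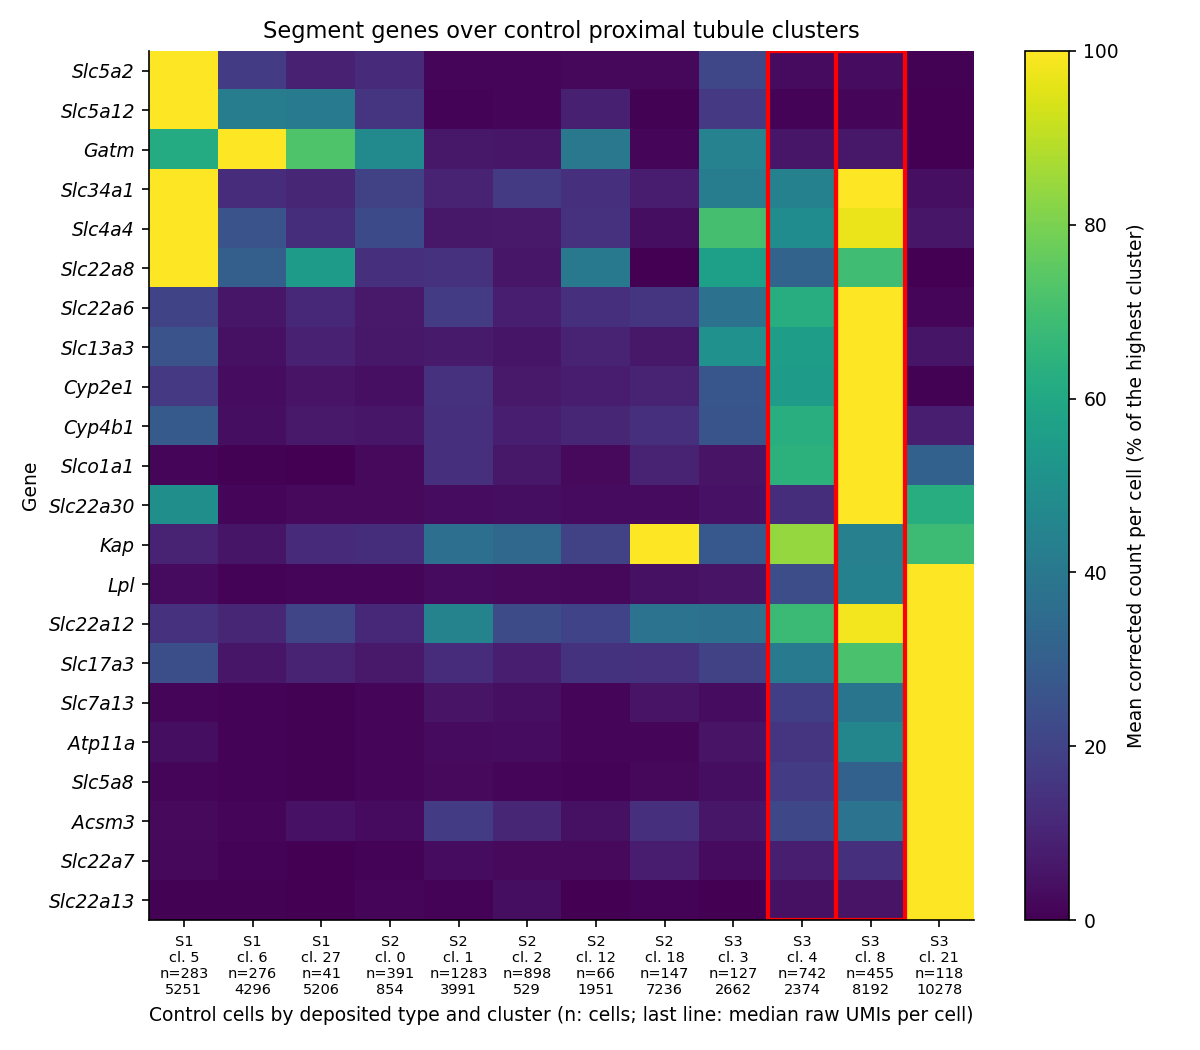
Mean corrected count per cell of 22 segment genes (rows) in the 12 control proximal tubule clusters with at least 20 cells (columns, with cell number and median raw UMIs), each row as a percentage of its highest cluster; red frames mark clusters 4 and 8. Slc22a6, Slc13a3, Cyp2e1, Cyp4b1 and Slco1a1 are brightest in cluster 8, while Slc7a13, Atp11a, Slc5a8, Acsm3, Slc22a7 and Slc22a13 are brightest in cluster 21.

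The S3 name is therefore only partly borne out by the markers, and cluster 21 showed where. It holds 118 further control PT-S3 cells (median 10278 UMIs) outside clusters 4 and 8, and the comparison with it was added after its marker levels were seen. Of 6166 genes measured, 463 were higher in clusters 4 and 8 (7.51%) and 309 lower (5.01%). Scaled by the median of gene ratios, the split was 348 higher and 388 lower. With 4000 to 8000 UMIs, where cluster 21 had 26 cells, 469 of 3408 were higher (13.8%) and 168 lower (4.93%).

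Of 23 S3 genes measured, 16 were lower in clusters 4 and 8 than in cluster 21 and only 3 higher, with a median log2 ratio of -1.89; at matched depth 11 of 19 were lower. The 3 higher genes were Cyp2e1, Cyp4b1 and Slco1a1. Slc7a13 averaged 1.22 in clusters 4 and 8 and 4.66 in cluster 21. Slc22a7, an organic anion transporter, averaged 0.201 against 1.92, and Slc22a13, of the same family, 0.0359 against 0.737. Cyp7b1, an oxysterol hydroxylase, was near absent, with 0.0343 against 2.31, as were Serpina1f, with 0.0192 against 1.15, and Bcat1, which starts the breakdown of branched-chain amino acids, with 0.00668 against 0.805. The lowest genes by the ranking also held Apob, the lipoprotein component, with a log2 ratio of -3.77. Lpl and Mep1a, among the highest genes against PT-S1 and PT-S2 cells, averaged 1.81 and 1.65 in clusters 4 and 8. In cluster 21 they averaged more, at 5.75 and 7.31.

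Some genes went the other way. Cyp2e1 averaged 0.0169 there against 2.04, Slc22a6 0.0254 against 1.16 and Slc34a1 0.288 against 4.58. Slco1a1 and Cyp4b1 were still found in cluster 21, at 0.364 and 0.347. Higher in clusters 4 and 8 too were Ass1 of arginine synthesis, Miox of inositol breakdown and G6pc, the last enzyme of gluconeogenesis, with log2 ratios from 3.21 (G6pc) to 3.50 (Ass1). Of 8 S1 genes measured 7 were higher than in cluster 21, and of 8 S2 genes 4 were higher and 1, Slc22a2, lower.

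Slc7a13, the gene of this comparison followed in single cells, was found together with Cyp2e1 in most cells of cluster 8. There, 305 of 455 cells had at least 1 corrected count of both Cyp2e1 and Slc7a13 (67.0%, 95% interval 62.5 to 71.3). With 4000 to 8000 UMIs both were found in 119 of 186 cells of cluster 8 (64.0%). In cluster 4 this held for 105 of 178 such cells (59.0%, 51.4 to 66.3). In cluster 21 it held for 2 of 118 cells (1.69%, 0.206 to 5.99), with 114 having Slc7a13 alone. These 2 were the only cells of cluster 21 with Cyp2e1, so no higher count was possible there. Among control T and B cells both were found in 1 of 86 (1.16%, 0.0294 to 6.31, median 2252 UMIs). Slc22a6 and Slc7a13 were found together in 61.5% of cluster 8 cells and in 3 of 118 cells of cluster 21, the only ones there with Slc22a6. With 4000 to 8000 UMIs they were found together in 92 of 178 cluster 4 cells (51.7%). Clusters 4 and 8 were thus PT-S3 cells with Cyp2e1, Cyp4b1, Slco1a1, Slc22a6 and Slc13a3 high among the control proximal tubule clusters. Cyp7b1, Slc22a7, Slc22a13 and Bcat1 were low in them against cluster 21. For Slc22a7 and Slc22a13 clusters 8 and 4 still ranked 2 and 3 of the 12 clusters. They are called by cluster number here.

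Markers of other cell types were low in all these groups. The 9 macrophage markers summed to 0.233 corrected counts per cell in control cluster 4, 0.187 in control cluster 8 and 0.483 in the IRI cells of cluster 4. The T and natural killer cell markers summed to 0.00809, 0.00659 and 0, and the B cell markers to 0.00135, 0 and 0. Endothelial markers summed to at most 0.0345, podocyte markers to at most 0.0345 and intercalated cell markers to at most 0.0862. Thick ascending limb markers summed to 0.379 to 0.446, mostly Cldn10, and haemoglobin and other red cell markers to 0.768, 0.857 and 0.155.

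At matched depth most segment genes differed less than 2-fold between cluster 4 and cluster 8, while the clusters differed in the nuclear RNAs Malat1 and Neat1 and in immediate early and glucocorticoid-responsive genes. With all control cells, 6 of 5883 measured genes were higher in cluster 4 (0.102%) and 334 lower (5.68%). In cells with 4000 to 8000 UMIs (178 of cluster 4, 186 of cluster 8) 74 of 3240 were higher (2.28%) and 205 lower (6.33%), with a median log2 ratio over all genes of 0.20. Cluster 8 cells were still the deeper ones within this band. Over all control cells the third quartile of cluster 4 was 4320 UMIs and the first quartile of cluster 8 was 6418. With totals that leave out mitochondrially encoded, ribosomal protein and haemoglobin genes, the split over all cells was 36 higher and 235 lower.

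Malat1, a long non-coding RNA that stays in the nucleus, set the clusters apart almost completely. It ranged from 0 to 34 corrected counts in cluster 4, with a median of 1, and from 21 to 487 in cluster 8, with a median of 111. Only 16 of 742 cluster 4 cells reached the lowest value of cluster 8, and 14 of 455 cluster 8 cells lay at or below the highest value of cluster 4. At matched depth the means were 0.848 and 171, and 32 of 178 cluster 4 cells had at least 1 corrected count (95% interval 12.6 to 24.4%) against all 186 cells of cluster 8. The correction does not list any cluster 4 cell under 1297 UMIs at 0, which touches 201 cells, so the level of shallow cells is set by the correction. In the 36 cluster 4 cells with 8000 or more UMIs Malat1 averaged 13.9, against 103 in cluster 8 cells of that depth. Control T and B cells averaged 41.7, so cluster 4 lay below and cluster 8 above cells of another type.

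**Figure D2:**
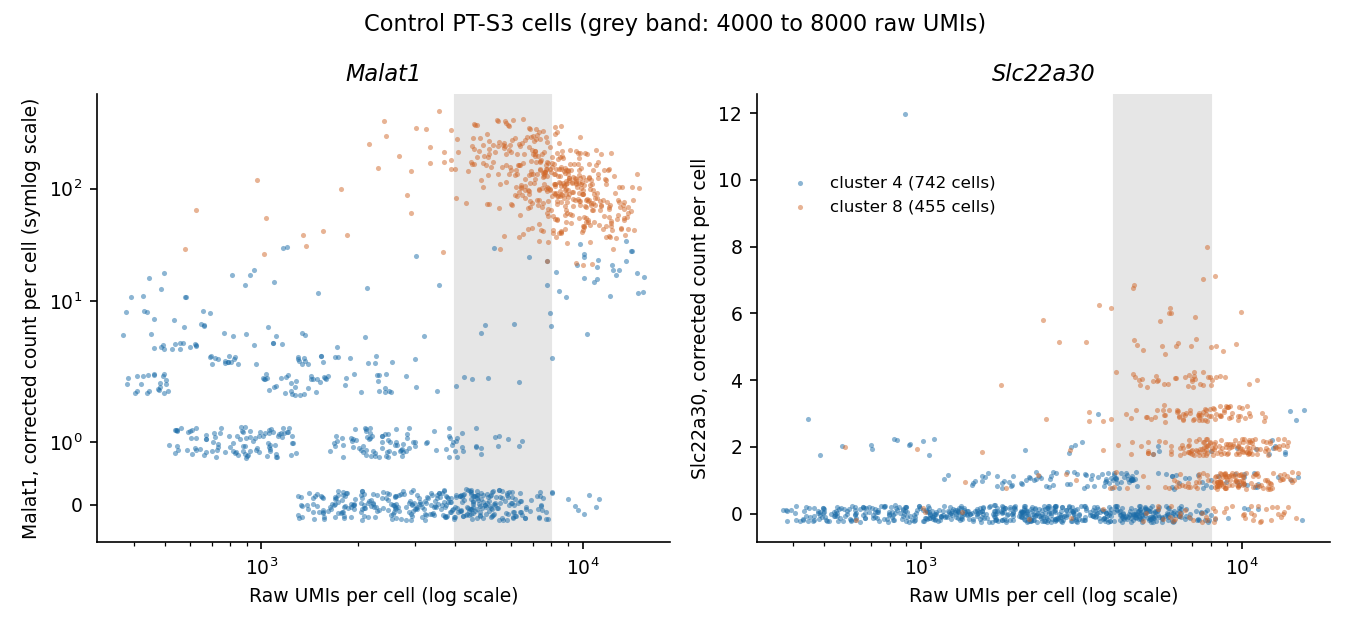
Corrected counts of Malat1 (left, symlog axis) and Slc22a30 (right) in each control cell of clusters 4 and 8 against raw UMIs (log axis), with a small random shift on the y axis; the grey band marks 4000 to 8000 UMIs. Within the band cluster 4 cells sit mostly at 0 for both genes, with means of 0.848 for Malat1 and 0.258 for Slc22a30, below cluster 8 at 171 and 2.59.

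Several other transcripts were lower in cluster 4 than in cluster 8 alongside Malat1. Cluster 4 was not unusually low among the 12 control proximal tubule clusters. From the highest mean down, it ranked 6 for Malat1, 5 for Neat1 and 4 for Zbtb20, where cluster 8 ranked 2, 3 and 1. Malat1 averaged 0.577 in PT-S2 cluster 1, 0.156 in PT-S2 cluster 18 and 39.8 in PT-S3 cluster 21. Neat1, the scaffold RNA of paraspeckles, averaged 0.0618 in cluster 4 and 2.52 in cluster 8 at matched depth. Zbtb20, a zinc finger repressor, averaged 0.747 and 6.04, and Pde4d, a cyclic AMP phosphodiesterase, 0.0169 and 0.651. The other lowest genes of cluster 4 were Pnisr, Col27a1, Pabpn1 and the unnamed transcripts RP23-306P12.3 and BC005561, with log2 ratios from -3.44 (RP23-306P12.3) to -2.60 (Pabpn1) over all cells.

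Immediate early genes, which respond within minutes to stress and growth signals, were lower in cluster 4 than in cluster 8. All 7 of those measured at matched depth were lower, with a median log2 ratio of -2.39, and 11 were measured over all cells with 9 lower. Jun averaged 0.0562 against 1.76 at matched depth and Dusp1, a phosphatase of MAP kinases, 0.0955 against 1.76. Of 11 glucocorticoid-responsive genes measured, 7 were lower at matched depth with a median of -1.51. Among them Gadd45g averaged 0.455 against 4.32, Ddit4, an inhibitor of mTOR signalling, 0.169 against 1.26, and Klf9 0.140 against 1.20. Of 8 circadian genes measured at matched depth 3 were lower (Tef, Per3 and Ciart). Jun was found in 88 of 186 cluster 8 cells and in 10 of 178 cluster 4 cells at matched depth. The share in cluster 4 was 5.62%, and control T and B cells, with a median of 2252 UMIs, had Jun in 9 of 86 (10.5%). Jun in T and B cells may be their own, so that share is no measure of free RNA.

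**Figure D3:**
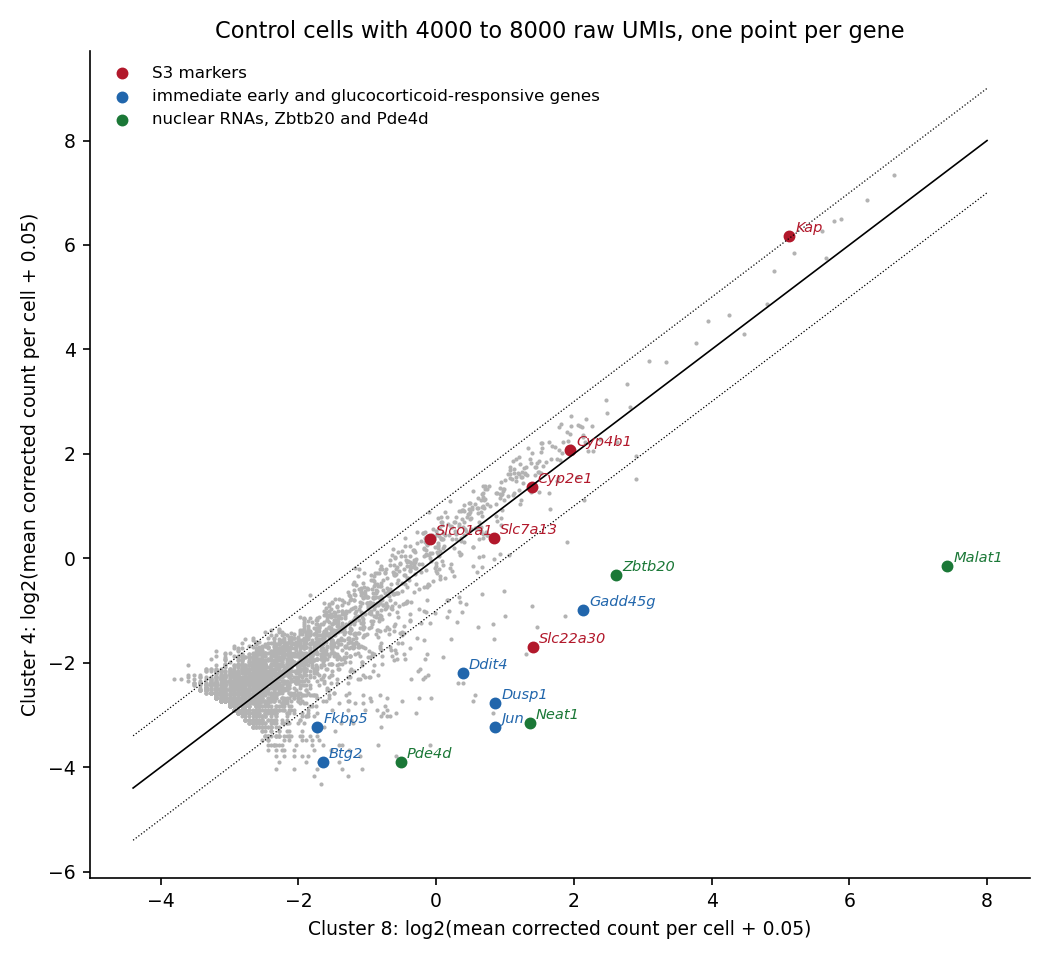
Mean corrected count per cell in control cells of cluster 4 (y axis) and cluster 8 (x axis) with 4000 to 8000 raw UMIs, as log2 of the mean plus 0.05, one point per gene; the solid line marks equal means and the dotted lines a 2-fold difference. Cyp2e1, Cyp4b1, Slco1a1 and Slc7a13 lie near the line, Kap at the upper dotted line, and Malat1, Neat1, Jun, Dusp1, Zbtb20 and Slc22a30 far below it.

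Several segment genes had close means once depth was matched. Slc22a6 averaged 1.44 in both clusters, Slc13a3 0.983 and 0.984, Cyp2e1 2.51 and 2.56, Cyp4b1 4.13 and 3.80, Lpl 2.26 and 2.12. The median over 18 measured S3 genes was 0.00 with 1 higher, Kap, and 3 lower, and over 8 S2 genes -0.03 with none called (0 higher, 0 lower). Slco1a1 averaged 1.24 and 0.887, and Slc7a13 1.26 and 1.74. Over all cells the S3 and S2 medians had been -0.63 and -0.76, so that difference moved with depth.

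Other genes of the transport and enzyme lists differed at matched depth. Those lower in cluster 4 were Slc22a30, Slc22a28, Slc6a18, Rnf24, Pck1, Fmo5 and Acox3. Amino acid transporters had a median of -0.29, with 1 of 11 lower, and sodium and anion cotransporters one of -0.33, with 0 of 9 called, against 0.20 for all genes. Slc22a30, an organic anion transporter given as an S3 marker, averaged 0.258 in cluster 4 and 2.59 in cluster 8, and had at least 1 corrected count in 42 of 178 cells (23.6%, 17.6 to 30.5) against 168 of 186 (90.3%, 85.1 to 94.2). Control T and B cells had it in 1 of 86 (1.16%). Slc6a18, an amino acid transporter, averaged 0.371 and 0.892, and Rnf24, an E3 ligase family member, 0.101 and 0.360. Slc34a1 averaged 3.81 and 7.44, just short of 2-fold with 0.05 added. Pck1, the entry enzyme of gluconeogenesis, was lower, with 2.83 against 7.44. Kap went the other way with 72.2 against 34.8, ranging from 12 to 487 in cluster 4 and from 9 to 296 in cluster 8, so single cells overlapped widely.

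Neither mitochondrial list had a member called between the clusters. The 13 mitochondrially encoded genes had a median log2 ratio of 0.66 at matched depth and the 21 nuclear respiratory chain genes one of 0.52, against 0.20 for all genes (0 of either list called). The genes highest in cluster 4 were Spp1, Tmsb4x, Pfn1, S100a11, Uqcrb (a complex III subunit outside those lists), Mt1, Chmp2a, Cstb, Myl6, Kap, Cetn3 and Hcfc1r1, and 6 of these passed 2-fold over all cells. The other control cells held more than 10 times as much Tmsb4x. Spp1, Tmsb4x and Mt1 came to log2 ratios of -0.25, 0.17 and -0.13 at matched depth.

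**Figure D4:**
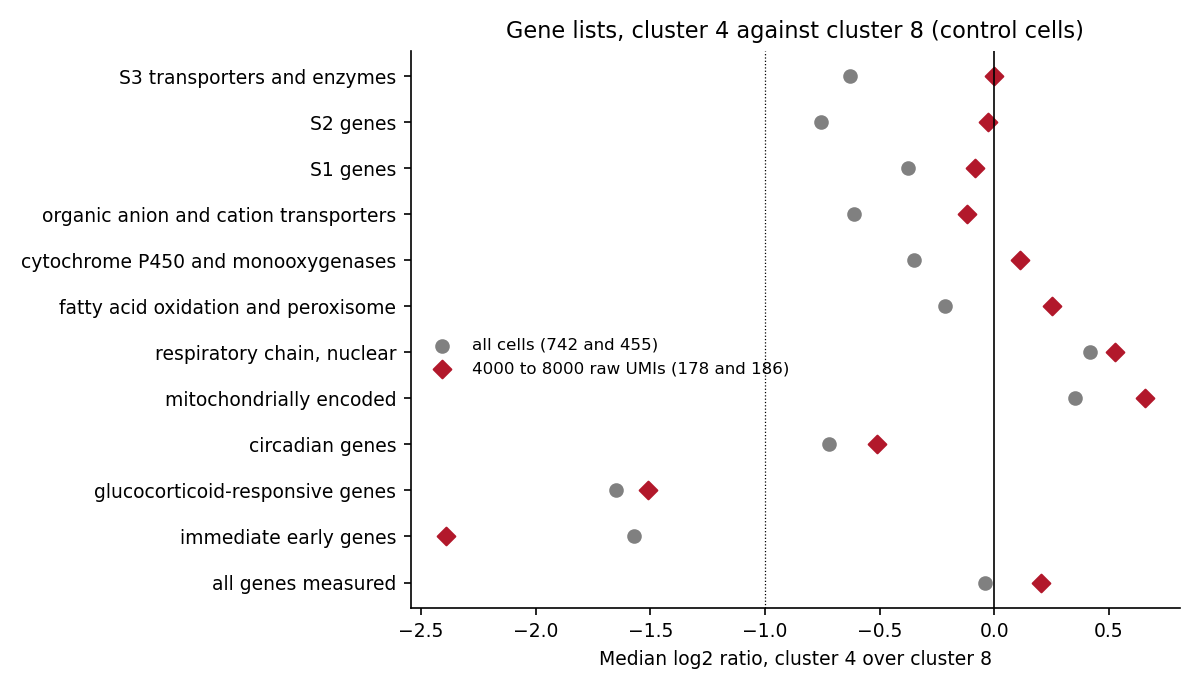
Median log2 ratio of cluster 4 over cluster 8 for 11 gene lists and all genes measured, over all control cells (grey circles) and over cells with 4000 to 8000 raw UMIs (red diamonds); the dotted line marks a 2-fold difference. S3 and S2 genes move from -0.63 and -0.76 to near 0 at matched depth, while immediate early and glucocorticoid-responsive genes stay below -1.5.

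Control PT-S1 clusters 5 and 6, with 5251 and 4296 median UMIs, also differed in Malat1. The gene lists were not compared between them. Malat1 averaged 217 in cluster 5 and 0.612 in cluster 6, Neat1 2.40 and 0.0652, Slc22a30 1.03 and 0.0254, Slc34a1 7.02 and 0.880. PT-S1 cluster 27, with 41 cells, averaged 0.317 for Malat1, 0.0488 for Slc22a30 and 0.756 for Slc34a1.

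The 58 IRI cells of cluster 4 had Kap near its level in control cells of like depth, and were low in several genes of the normal cells. Cells were placed in clusters by these same genes, so likeness to control cells of the cluster is partly set by that placement. Against all 742 control cells of cluster 4, 31 of 4394 measured genes were higher (0.706%) and 571 lower (13.0%), with a median log2 ratio over all genes of -0.33. A gene could pass the minimum through the 742 control cells alone, which favours calls of lower. Of the 4394 genes, 422 were listed at 0 in 1 of the groups, and 17 of the 1868 genes measured against the nearest cells. Scaled by the median of gene ratios the split was 90 higher and 197 lower. Against control cells nearest in UMIs, 27 of 1868 were higher (1.45%) and 126 lower (6.75%), with a median of -0.08, and the values that follow are against these 226 cells unless stated. A control cell chosen for several IRI cells enters the mean that many times and a share of cells once.

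Kap averaged 72.9 in the IRI cells and 74.8 in control cells, with single IRI cells from 12 to 243 and a median of 56.5. Slc34a1 averaged 2.03 and 2.34, Slc13a3 0.534 and 0.324, Slc22a6 0.50 and 0.703, Cyp2e1 0.724 and 1.13, Cyp4b1 1.31 and 1.91. None of these was called at this depth, while Cyp2e1 was called lower against all 742 cells (1.56). The nuclear respiratory chain list had a median of 0.01 over 21 genes and the mitochondrially encoded list one of -0.03 over 12 genes measured.

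Lower S3 genes were Slco1a1, Slc7a13, Slc5a8 and Slc22a7, which made 4 of 17 measured, with 0 higher and a median of -0.54. Slco1a1 averaged 0.224 against 0.531 and was found in 8 of 58 IRI cells (13.8%, 6.15 to 25.4), against 71 of 226 control cells (31.4%, 25.4 to 37.9). Slc7a13 averaged 0.190 against 0.555 and was found in 8 of 58 IRI cells as well, against 75 of 226. T and B cells had Slco1a1 in 0 of 166 IRI and 1 of 86 control cells, and Slc7a13 in 0 of 166 and 5 of 86. Slc22a7 was listed at 0 in the IRI cells and averaged 0.103 in the control cells.

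Dnase1, a secreted nuclease, had the lowest ratio against all control cells of cluster 4. At like depth it averaged 0.0172 against 1.02, and was found in 1 of 58 IRI cells (1.72%, 0.0436 to 9.24) against 97 of 226 control cells (42.9%, 36.4 to 49.7). IRI T and B cells, which were deeper and not matched, had it in 2 of 166 (1.20%, 0.146 to 4.28, median 2399 UMIs). Whether Dnase1 in the 58 cells exceeds free RNA cannot be told from these shares, since the interval from shallow cells is wide. Inmt, an indole N-methyltransferase, averaged 0.241 against 1.69 and was found in 8 of 58 IRI cells, against 142 of 226 control cells. T and B cells had it in 4 of 166 in the IRI library (2.41%) and 14 of 86 in the control library (16.3%). Kl, the klotho co-receptor for FGF23, averaged 0.0862 against 0.428, and Mocs2 of molybdenum cofactor synthesis 0.0172 against 0.421. Herpud1, Hax1, Hpd, Prnp, Cyp2a5, Nckap1 and Slc22a7 were listed at 0 in the 58 cells, where 58 shallow cells give few counts, and Cmtm6 was at 0.0172.

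Higher genes were few. Cyp4a10, a fatty acid omega-hydroxylase, averaged 0.603 against 0.152 and was found in 24 of 58 IRI cells (41.4%, 28.6 to 55.1), against 25 of 226 control cells (11.1%, 7.29 to 15.9) and 6 of 166 IRI T and B cells (3.61%). Acot1, an acyl-CoA thioesterase, averaged 0.259 against 0.0724. Cyp4a14, a close homologue of Cyp4a10, averaged 0.224 against 0.0404 in all 742 control cells, and was under the minimum against the nearest cells. The other named genes were Ucp2, Cpn1, Gsta2, Dynll1, Sgk1, Wfdc2, Ly6e, Spp1 and Tmsb4x. Gsta2, a glutathione transferase, averaged 0.448 against 0.0897. Sgk1, a kinase that controls sodium transport, averaged 0.259 against 0.0553 in all 742 control cells and was also under the minimum against the nearest cells. Ucp2, a mitochondrial carrier, averaged 0.362 against 0.0310, and 0.934 in IRI T and B cells. Reads of near-identical paralogues such as Cyp4a10, Cyp4a14 and Cyp4a31, or Cyp2a4 and Cyp2a5, may be split between them.

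Spp1, a secreted glycoprotein known to increase in injured tubules, had the highest ratio, 1.81 against 0.159. It was found in 38 of 58 IRI cells (65.5%, 51.9 to 77.5), and in 101 of 166 IRI T and B cells (60.8%, 53.0 to 68.3), which averaged 1.15. The T and B cells were deeper, with a median of 2399 UMIs, and were not matched. The correction also bears on the share of shallow cells, since the shallowest control cell of cluster 4, with 371 UMIs, was listed at 1. Whether Spp1 in the 58 cells exceeds the free RNA of the IRI library therefore cannot be told from these shares. The other IRI cells held more than 10 times as much Tmsb4x. Against all 742 control cells of cluster 4, 3 of 8 measured tubule injury genes were higher (Spp1, Tmsb4x and Wfdc2) and 1, Plin2, was lower. Their median log2 ratio was 0.585, against -0.33 for all genes, of which 0.706% were higher.

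Against the 727 IRI PT-S3 cells of cluster 3 (median 2471 UMIs), the 58 cells were higher in some S3 genes and lower in injury genes. Of 4254 genes measured 18 were higher (0.423%) and 426 lower (10.0%), or 69 higher and 156 lower when scaled by the median of gene ratios. Here too a gene could pass the minimum through the 727 cells of cluster 3 alone. With the cells of cluster 3 nearest in UMIs, 23 of 1840 were higher (1.25%) and 123 lower (6.68%). Both comparisons use the same 58 cells. Of 16 S3 genes measured 4 were higher (Slco1a1, Kap, Acsm3 and Aadat) and 0 lower, with a median of 0.26, and of 11 S1 genes 6 were lower, with a median of -1.14. Against the nearest cells 3 of 14 S3 genes were higher (Kap, Acsm3 and Aadat; Slco1a1 was under the minimum), and 3 of 9 S1 genes lower with a median of -0.58. Cytochrome P450 genes had a median of -0.12 over all cells and of 0.52 against the nearest cells, where Cyp4a10 and Cyp4a31 were higher.

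Kap averaged 72.9 in the 58 cells and 25.9 in cluster 3, where it ranged from 0 to 266. Slco1a1 averaged 0.224 against 0.0413, and was found in 13.8% of cells against 3.30% (24 of 727, 2.13 to 4.87). Acsm3, an acyl-CoA synthetase, averaged 0.534 against 0.180 and Aadat, of the kynurenine pathway, 0.241 against 0.0715. Others among the highest genes were Aspa, Osgin1, Polr3e, Mrps10, Hsd3b3, Itm2c and Kbtbd11, with log2 ratios from 1.16 (Kbtbd11) to 1.45 (Aspa). Cyp2e1 averaged 0.724 against 0.824 in all cells of cluster 3 and 0.562 in the nearest ones, and Slc13a3 0.534 against 0.739 and 0.424, and neither was called.

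Of 18 tubule injury genes measured, 9 were lower and 0 higher than in cluster 3, with a median of -1.0, and 9 of 12 were lower at nearest depth. Spp1 averaged 1.81 against 15.0. Havcr1, kidney injury molecule 1, had no corrected count in the 58 cells, so that 3 counts put the limit at 5.17% of cells with a corrected count. In cells this shallow that limits detection and not expression. It was found in 84 of 727 cluster 3 cells (11.6%, 9.32 to 14.1) and in 5 of 166 IRI T and B cells (3.01%). Tmsb10, an actin-binding peptide, averaged 0.0862 against 0.649. Vcam1, Clu, Anxa2, C3, Plin2 and Wfdc2 were the other 6 over all cells. At nearest depth Lcn2, S100a6 and S100a11 were called, and Vcam1, Clu and Anxa2 were not. Id3, Plac8, Cxcl16, Prnp, Spns3 and Gnai2 were listed at 0 in the 58 cells, and Atp2a2, Fgg and Apoe were lower as well. Inmt and Dnase1, far below control in the 58 cells, were low in cluster 3 too, at 0.135 and 0.0825.

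**Figure D5:**
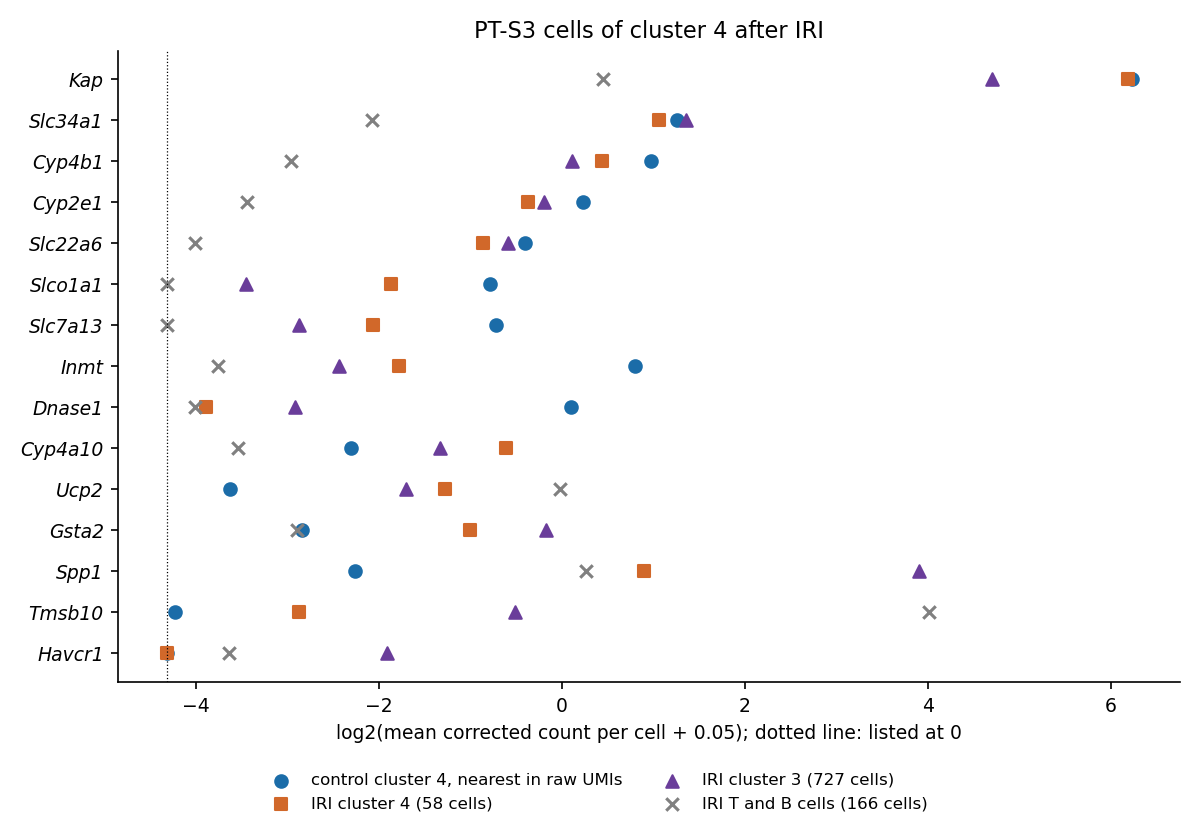
Mean corrected count per cell (as log2 of the mean plus 0.05) of 15 genes in the 58 IRI cells of cluster 4 (squares), control cells of cluster 4 nearest in raw UMIs (circles), IRI PT-S3 cells of cluster 3 (triangles) and IRI T and B cells (crosses); the dotted line marks genes listed at 0. Kap sits with the control cells at 72.9 and 74.8, Dnase1 and Inmt sit far below them, and Spp1 at 1.81 lies near the T and B cells and below cluster 3 at 15.0.

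The 4 IRI cells of cluster 8 were too few to compare. They had 5029 to 10835 UMIs. Malat1 ranged from 30 to 515 corrected counts in them and Kap from 10 to 25, against a median of 30 in control cells of cluster 8. Slc7a13 ranged from 0 to 3, Spp1 from 2 to 10, and Cyp2e1, Dnase1 and Inmt were listed at 0 in all 4 cells.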

How the data were processed

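Droplet single-cell RNA sequencing of 2 kidney libraries, 1 control and 1 IRI, was used. Per the submitters' processing notes, Cell Ranger 3.0.0, Seurat 3.2 and mm9 were used. The first deposited table holds whole numbers that are a score, not raw counts: depth-corrected counts of the kind SCTransform gives, totalling 1468 to 3212 per cell where raw UMIs run from 271 to 24680. Of the other tables the authors deposited, one gives the natural log of each such value plus 1, and the last a residual score, which served only to settle the reading of raw UMIs from the annotation. That annotation is written without separators; 3615 of 11759 cells allowed more than 1 reading. No raw count table was used here, so no count test was run. Doublets were not called, because no raw counts were used.

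Means per cell of the corrected counts were compared as log2 ratios with a pseudocount of 0.05, over genes with at least 30 summed values, in Python 3.11.15 with numpy 2.4.6, pandas 2.3.3, scipy 1.17.1 and matplotlib 3.10.9. The ratio understates the change of scarce genes. The ratio was tested on simulated sums with known 2-fold changes. These sums held no difference in depth, so the effect of depth was not tested by them. Named genes are the 12 highest and 12 lowest ratios of each comparison with a mean of at least 0.1 in the higher group, leaving aside haemoglobin, ribosomal protein, mitochondrially encoded and unnamed (Gm, Rik) genes; members of 24 gene lists and 16 marker sets (467 of 477 genes in the table) are named besides. A few genes that meet this rule are not reported here. Any other gene was chosen after its values were seen. The members, the lists and the comparison with cluster 21 were chosen with earlier results of these data known. Alternatives were other pseudocounts, minimums, scalings, depth limits and means of logs. No coordinates are given, because the reference at hand is not mm9.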

Additional observations from a re-analysis of the deposited data

How the results depend on the processing

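No paired analysis was possible because each group is 1 library. Depth, the pseudocount and scaling changed the counts of genes at least 2-fold apart, and the cause was not tested. For clusters 4 and 8 against PT-S1 and PT-S2 (373 higher, 34 lower), higher counts were 228 between shared depth quartiles, 1101 and 34 with pseudocounts of 0.01 and 0.5, and 15 with means of the natural log of the value plus 1. Lower counts were 232 at 2000 or more UMIs, 56 between quartiles, 279 at 4000 to 8000 UMIs, 138 without PT-S2 clusters 0 and 2, 97 and 1 with those pseudocounts, 64 scaled by the median of gene ratios and 0 with log means; Jun turned to -0.17 between quartiles. For cluster 4 against 8 (6 higher, 334 lower), the pairs higher and lower were 13 and 213 at 2000 or more UMIs, 74 and 205 at 4000 to 8000, 128 and 686 with 0.01, 0 and 32 with 0.5, and 0 and 14 with log means, and 36 were higher with totals lacking mitochondrial, ribosomal and haemoglobin genes. For IRI against control cluster 4 (31 higher, 571 lower), 126 were lower against the nearest cells and 49 higher with those totals. The pairs were 69 and 1329 with 0.01, 1 and 6 with 0.5, 14 and 218 with at least 100 summed values, 90 and 197 with median scaling, and 1 and 1 with log means, and 66 were higher with no minimum. For IRI cluster 4 against cluster 3 (18 higher, 426 lower), 123 were lower against the nearest cells, and 32 higher with each cell divided by its total, 30 with those totals and 38 with no minimum. The pairs were 67 and 1184 with 0.01, 1 and 2 with 0.5, 6 and 133 with at least 100, 69 and 156 with median scaling, and 1 and 1 with log means. Against cluster 21 (463 higher, 309 lower), pairs were 1235 and 542 with 0.01, 50 and 71 with 0.5, and 16 and 34 with log means, 168 were lower at 4000 to 8000 UMIs, and Txn1 turned to -0.0605 there. The control share of 18.2% became 22.5% at 1000 and 24.5% at 2000 or more UMIs, 24.8% of proximal tubule cells and 83.0% of PT-S3 cells; the IRI share of 1.20% became 0.762% at 2000 or more UMIs, 1.90% and 7.85%. Shared quartiles were not run for cluster 4 against 8, cluster 21 or the IRI cells, with no shared window or under 20 IRI cells (16 and 11), nor was the limit of 2000 UMIs for the 15 IRI cells above it. The depth-matched settings, and the comparison with cluster 21, were chosen after seeing the data.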
